A study of Mus musculus with 15 samples.

Results

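The clustered histone genes of the mouse encode the core histones H2A, H2B, H3 and H4 and the linker histone H1, the proteins that wrap and compact DNA. They were taken as the protein-coding genes of GENCODE M21 whose symbol begins with Hist1h, Hist2h, Hist3h or Hist4h, and the deposited transcript values were summed per gene. This rule found 67 genes, and 66 of them had a value, among 32930 genes with a value in all. The member with no value was Hist1h2aa, an H2A gene known from testis, and for Hist1h2bq and Hist1h2br only longer transcripts were listed. Of the 67 genes, 54 lie in the Hist1 cluster on chromosome 13, 10 in the Hist2 cluster on chromosome 3, 2 in the Hist3 cluster on chromosome 11, and 1 (Hist4h4) on chromosome 6. They encode 6 H1, 18 H2A, 18 H2B, 12 H3 and 13 H4 proteins.

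RNA was sequenced from tissue labelled as vascular, from C57BL/6 mice aged 10 weeks, in 3 groups of 5 libraries. Lien mice are labelled as hypertensive with Lien added, AngII mice as hypertensive, and NS mice as normal. AngII stands for angiotensin II, a hormone that raises blood pressure, and Lien is read from the title as liensinine, an alkaloid found in the embryo of the lotus seed, which the study tried against vessel remodeling under AngII. The labels used here give no dose, route or duration, and do not say whether each library is a separate mouse, so the p-values measure the spread between libraries, which may be technical.

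Most clustered histone genes are switched on in S phase, when new DNA has to be packaged, and their mRNAs are unusual in ending not in a poly(A) tail but in a short stem-loop. The stem-loop binding protein Slbp holds that hairpin and, with the U7 particle, directs the cut that forms the mRNA end. When replication stops, these mRNAs are degraded. Some members also give longer, polyadenylated mRNAs in cells that no longer divide, and a separate set of genes outside the clusters, such as H3f3b, H2afz and H1f0, supplies replacement histones at all times. Ribosomal RNA was removed from total RNA before library preparation, per the labels, with no selection for poly(A) tails, so both kinds of mRNA could be sequenced.

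The histone stem-loop, a hairpin of 16 bases with 6 paired bases in its arms, was searched on the transcript strand of the annotated transcripts, after the end of the coding sequence. It was found in the highest transcript of 46 of the 66 genes. A single hairpin spelling, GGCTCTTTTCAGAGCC, was found in 26 genes of the H1, H2A, H2B and H3 classes, and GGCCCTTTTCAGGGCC in 7, all of them H4 genes. The sites below are from the transcripts of GENCODE M21 (GRCm38), with the hairpin in capitals and 5 flanking bases on each side. The site is the mark of a replication-dependent mRNA end, and those of 6 genes are shown to let its arms and loop be compared.
Hist1h1c (chr13:23739507-23739532, plus strand): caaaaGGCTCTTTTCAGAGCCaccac
Hist1h2bg (chr13:23571838-23571863, plus strand): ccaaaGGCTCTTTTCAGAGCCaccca
Hist1h4h (chr13:23531453-23531478, plus strand): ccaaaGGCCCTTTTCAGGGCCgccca
Hist1h4i (chr13:22040961-22040986, minus strand): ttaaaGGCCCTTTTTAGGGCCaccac
Hist1h4b (chr13:23757361-23757386, plus strand): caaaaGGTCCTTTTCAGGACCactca
Hist1h3e (chr13:23561898-23561923, minus strand): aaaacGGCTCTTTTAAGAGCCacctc
The hairpin of Hist1h4b, an H4 gene, differs from that of Hist1h4h in its arms, while those of Hist1h4i, an H4 gene, and Hist1h3e, an H3 gene, differ from those of Hist1h4h and Hist1h1c in the loop.

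Annotated transcripts go on for different lengths after the hairpin. In 23 of the 46 genes the transcript ended within 100 bases of it, as for Hist1h4h with 46 bases, and in 23 it ran on, up to 4884 bases. Hist1h1c ran on for 840 bases, Hist3h2a for 1643 and Hist1h2bg for 155. Of the 20 genes without a hairpin, 15 are annotated with fewer than 50 bases after the coding end, too short to judge. Hist1h2bc, with 745 annotated bases after its coding end, and Hist2h2be, with 2195, held no hairpin of this spelling in them. The annotated transcript of Hist1h2bc has 1156 bases and spans chr13:23684199-23692908, so the bases removed by splicing were not searched. The files give a value per transcript, not the position of reads along it, so the end of the sequenced mRNAs was not measured.

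Within the clusters, H2A and H2B genes often stand head to head and share the DNA between their starts. There are 12 such pairs, 175 to 305 bases apart, and the DNA is shown for the 3 pairs with the highest H2B levels, together with the promoter of Hist1h1c, the member with the highest level, to show the DNA that the partners share and the boxes in it. They are RefSeq promoter sequences of GRCm38.p6, given on the strand of the H2A gene or of Hist1h1c. Capitals mark the CCAAT box, the octamer ATTTGCAT and the TATA box, searched as TATAAA, each on either strand, so that a box on the other strand is printed as its reverse complement.
Hist1h2ac and Hist1h2bc (chr13:23683960-23684198, minus strand): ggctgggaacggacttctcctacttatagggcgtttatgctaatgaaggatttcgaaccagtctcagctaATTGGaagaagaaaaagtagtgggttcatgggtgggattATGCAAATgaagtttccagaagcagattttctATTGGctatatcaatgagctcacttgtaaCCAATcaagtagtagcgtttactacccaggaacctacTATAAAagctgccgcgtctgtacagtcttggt
Hist1h2ae and Hist1h2bg (chr13:23571221-23571395, minus strand): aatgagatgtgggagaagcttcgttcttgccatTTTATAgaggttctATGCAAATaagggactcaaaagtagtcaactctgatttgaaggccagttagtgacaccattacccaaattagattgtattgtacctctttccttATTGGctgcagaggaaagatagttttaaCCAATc
Hist2h2ac and Hist2h2be (chr3:96220881-96221118, minus strand): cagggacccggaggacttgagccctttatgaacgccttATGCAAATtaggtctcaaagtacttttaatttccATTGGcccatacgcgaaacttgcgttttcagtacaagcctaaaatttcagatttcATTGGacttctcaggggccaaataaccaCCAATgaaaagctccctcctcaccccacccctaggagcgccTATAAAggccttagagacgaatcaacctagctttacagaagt
Hist1h1c (chr13:23738557-23738806, plus strand): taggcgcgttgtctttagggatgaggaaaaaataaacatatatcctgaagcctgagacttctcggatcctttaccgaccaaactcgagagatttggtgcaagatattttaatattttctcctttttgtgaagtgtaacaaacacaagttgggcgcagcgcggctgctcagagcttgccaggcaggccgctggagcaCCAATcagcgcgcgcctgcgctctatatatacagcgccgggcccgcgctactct
CCAAT is the box bound by NF-Y, and the octamer is bound by Pou2f1, known as a regulator of H2B genes in S phase. In the 250 bases upstream of the start, CCAAT stood on either strand in 50 of 61 members with a promoter sequence, against 34.5% of all 27025 promoters in the table. The octamer stood in 7 of 17 H2A and 6 of 16 H2B promoters and in no H1, H3 or H4 promoter, against 1.61% of all promoters. TATAAA stood in 29 of 61 members, against 13% of all promoters. The element GGTCCG of H4 genes stood in 9 of 12 H4 promoters, against 6.82% of all promoters. AAACACAAA, the string searched for the box of H1 genes, stood in 1 of 6 H1 promoters, against 0.629% of all. The shorter aaacaca was not searched for. It is present in the Hist1h1c promoter above and in those of Hist1h1b, Hist1h1d and Hist1h1e, and its share of all promoters was not counted. None of these 5 motifs contains another, and a match is a description of letters, not of binding.

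The levels below are in FPKM, fragments scaled to transcript length and library depth, which is how the deposited values are read. They can be compared between genes only as far as the annotated lengths hold. The level of an mRNA that ends before its annotated end is understated, and the ends were not measured. Levels spanned a wide range, and a handful of genes held nearly all of the clustered histone RNA. The mean over the 15 libraries was at least 5 FPKM in 6 genes and at least 1 FPKM in 11, and below 1 FPKM in 55. In 33 genes no library reached 0.5 FPKM. Hist1h2bm, Hist2h2bb and Hist2h2aa2 were listed at 0 in every library, and 23 genes were above 0 in every library.

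**Figure D1:**
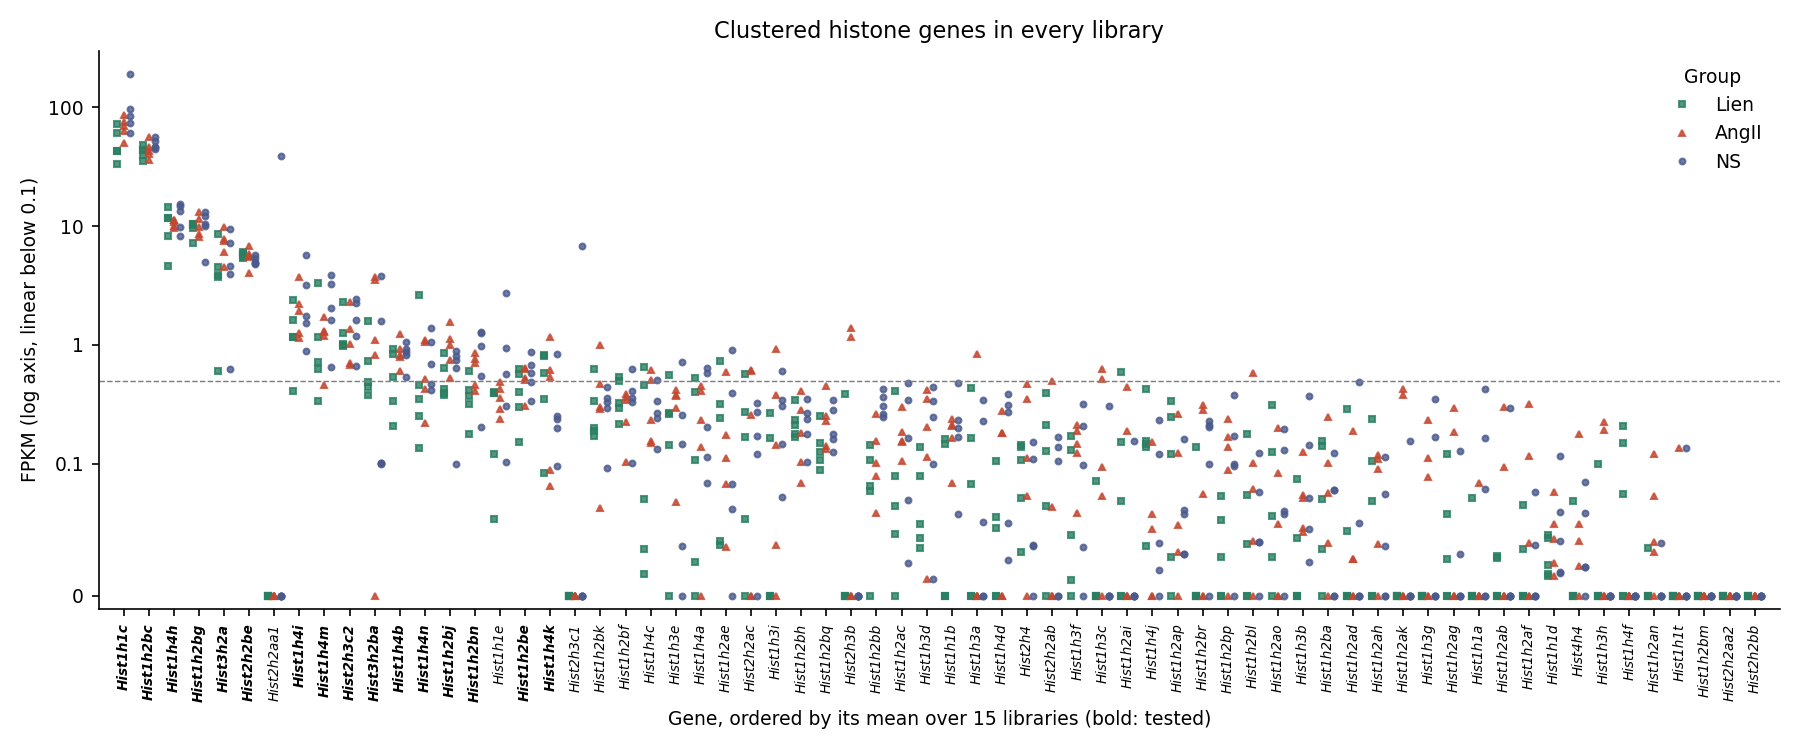
FPKM of the 66 clustered histone genes with a value (vertical axis, logarithmic above 0.1 FPKM and linear below) in each of the 15 libraries, with Lien as squares, AngII as triangles and NS as circles; genes run from the highest mean to the lowest, bold names were tested, and the dashed line marks 0.5 FPKM. Hist1h1c and Hist1h2bc stand far above the rest in all 3 groups, and Hist2h2aa1 and Hist2h3c1 are above 0 in 1 library.

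A gene was tested where at least 5 libraries reached 0.5 FPKM. This left 16 clustered histone genes, 24.2% of those with a value, where 47.3% of all genes passed. They were 1 H1 gene, 1 H2A gene, 7 H2B genes, 1 H3 gene and 6 H4 genes. The means of the members summed to 74.7 FPKM for H1, 65.6 for H2B, 17.6 for H4, 9.59 for H2A and 3.25 for H3. The H2A sum includes 2.58 FPKM of Hist2h2aa1 and the H3 sum 0.451 FPKM of Hist2h3c1. Both values come from NS 3 alone and are not taken below as levels of these genes. Each nucleosome takes equal numbers of the 4 core histones, and the summed levels of the clustered core histone genes were far from equal. Under the reading of the smallest deposited steps given with the processing, 1 fragment on a coding sequence of 381 bases corresponds to 0.136 to 0.167 FPKM, so that most of the low members rest on a few fragments or none.

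Hist1h1c, a linker histone gene, had the highest mean of all members, 73.9 FPKM, and 4.66% of all tested genes had a higher one. It had 73.1, 43.3, 33.3, 60.8 and 43.2 FPKM in the Lien libraries, 86.5, 69.5, 63.8, 76.1 and 50.3 FPKM in the AngII libraries, and 74.4, 85.2, 192, 61.3 and 96.3 FPKM in the NS libraries. Most Lien libraries were low and NS 3 was high, and the groups overlapped. Hist1h1c averaged 50.7 ± 15.9 FPKM in Lien, 69.2 ± 13.5 FPKM in AngII and 102 ± 52.1 FPKM in NS (SD, n = 5 each). Its log2 difference of Lien against NS was -0.93 (SE 0.28, 95% interval -1.53 to -0.33), with 5 of 5 Lien libraries below the NS median. The limma p was 0.0051 unadjusted and 0.37 adjusted over all tested genes, so it was not called. Without NS 3 the difference was -0.67, with an adjusted p of 0.57 in limma, and the range of the difference over the 15 fits that each left out 1 library was -1.08 to -0.67. Hist1h1c differed by -0.45 in AngII against NS (SE 0.28, limma adjusted p = 0.74). The difference in Lien against AngII was -0.47 (SE 0.28, limma adjusted p = 0.74). In NS 3, the skeletal muscle marker list was also the highest of all libraries. Its mean log2(FPKM + 1) was 9.14 there, where the other 14 libraries had 0.698 to 6.53. AngII 9, the next highest in that list at 6.53, had 76.1 FPKM of Hist1h1c. The nerve and Schwann cell list, at 4.90, and the endothelial list, at 5.54, were highest in NS 3 too. The other libraries reached at most 4.77 and 5.37 in these lists. The part of any of these tissues in the Hist1h1c level was not tested.

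Other H1 genes of the clusters were low. Hist1h1e reached 2.75 FPKM in NS 3 and at most 0.949 FPKM elsewhere, while Hist1h1a, Hist1h1b, Hist1h1d and the testis gene Hist1h1t stayed below 0.5 FPKM in every library. Against the replacement linker histones H1f0 and H1fx, the clustered H1 genes made up 52.3%, 43.4%, 37.6%, 43.3% and 42.2% of all H1 FPKM in the Lien libraries. In the AngII libraries they made up 51.1% to 54.0%, and in the NS libraries 51.4% to 69.2%. Lien 11 lay with the other groups, and the remaining 4 Lien libraries were below every AngII and NS library in this share, which is given with no test.

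Among the core histone genes, the H2B genes had the highest levels. Hist1h2bc had 43.4, 47.8, 39.4, 35.7 and 44.2 FPKM in the Lien libraries, 56.3, 46.9, 43.3, 35.8 and 40.8 FPKM in the AngII libraries, and 44.4, 52.0, 46.7, 46.5 and 56.4 FPKM in the NS libraries. It varied little, and the 3 groups overlapped. Its difference was -0.22 in Lien against NS (SE 0.13, limma adjusted p = 0.81), -0.07 in Lien against AngII and -0.15 in AngII against NS. The 95% interval of Hist1h2bc in Lien against NS was -0.50 to 0.06.

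Hist1h2bg, the H2B gene next in level, had 10.3, 10.4, 9.61, 7.17 and 10.4 FPKM in the Lien libraries, 13.2, 11.6, 9.88, 8.10 and 8.64 FPKM in the AngII libraries, and 10.5, 12.2, 5.03, 10.1 and 13.3 FPKM in the NS libraries. NS 3 was the lowest of the 15 libraries in Hist1h2bg and the highest in Hist1h1c. Hist2h2be, an H2B gene known in the mouse from olfactory neurons, had 4.05 to 6.86 FPKM over all libraries, and 100% of its 50-base windows are found in no other annotated gene. For Hist1h2bg 50.3% of windows are its own and for Hist1h2bc 69.4%, so reads from these genes could be split with their near copies.

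Head-to-head partners differed widely in level. In the pair of Hist1h2bc and Hist1h2ac, whose shared DNA is printed above, Hist1h2bc averaged 45.3 FPKM and Hist1h2ac 0.174 FPKM, with 35.7 FPKM as the lowest library of Hist1h2bc and 0.480 FPKM as the highest of Hist1h2ac. Hist1h2bg averaged 10.0 FPKM and its partner Hist1h2ae 0.255 FPKM. Hist2h2be averaged 5.48 FPKM and its partner Hist2h2ac 0.228 FPKM. In these 3 pairs the lowest library of the H2B gene lay above the highest library of the H2A gene. Over the 11 pairs with values for both, the H2B gene had the higher mean in 9, and no H2A gene of a pair averaged above 0.255 FPKM. In the other two pairs, of Hist1h2bl with Hist1h2ai and of Hist1h2br with Hist1h2ap, both means were 0.107 FPKM or less.

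**Figure D2:**
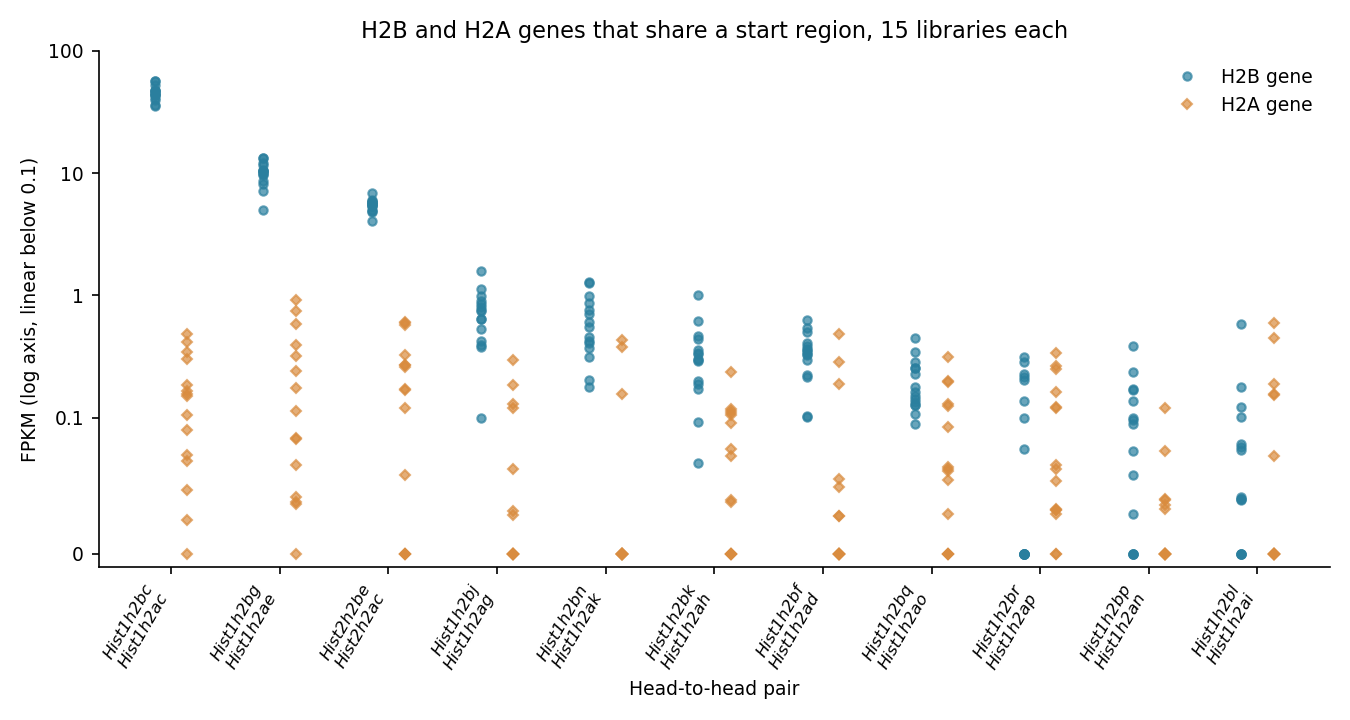
FPKM (vertical axis, logarithmic above 0.1 FPKM and linear below) of the H2B gene (circles) and the H2A gene (diamonds) of the 11 head-to-head pairs with values for both, each point being 1 of the 15 libraries. The gap between partners is widest for Hist1h2bc and Hist1h2ac, with means of 45.3 and 0.174 FPKM, and closes among the pairs at the right, where both means are low.

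H4 genes came next. Hist1h4h had 4.63, 11.8, 14.4, 8.25 and 11.7 FPKM in the Lien libraries, 9.96, 10.9, 11.4, 11.4 and 9.61 FPKM in the AngII libraries, and 9.84, 13.5, 8.28, 15.4 and 14.7 FPKM in the NS libraries. Lien 11 was the lowest, and the groups overlapped, with a difference of -0.30 in Lien against NS, -0.14 in Lien against AngII and -0.17 in AngII against NS. Hist1h4i ranged over 0.414 to 2.39 FPKM in Lien, 1.14 to 3.76 FPKM in AngII and 0.889 to 5.67 FPKM in NS. Hist1h4m ranged over 0.337 to 3.30 FPKM in Lien, 0.458 to 1.71 FPKM in AngII and 0.651 to 3.90 FPKM in NS. For Hist1h4m 10.2% of windows are its own and 89.8% are shared with Hist1h4n, so the split between these H4 genes is uncertain. Hist1h4b averaged 0.763 FPKM over all libraries. Hist2h4 averaged 0.123 FPKM, and the lone gene Hist4h4 averaged 0.0373 FPKM.

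Clustered H3 genes had little RNA. Hist2h3c2, the only H3 gene tested, had 2.32, 1.01, 0.979, 1.00 and 1.27 FPKM in the Lien libraries, 2.30, 0.70, 1.02, 1.36 and 0.683 FPKM in the AngII libraries, and 1.18, 2.24, 2.44, 0.664 and 1.63 FPKM in the NS libraries. Hist1h3e, the highest H3 gene of the Hist1 cluster, averaged 0.262 FPKM. The replacement gene H3f3b had 63.9 to 133 FPKM, and together with H3f3a and H3f3c the replacement genes held nearly all H3 FPKM, since the clustered genes made up 0.646% to 2.17% of it in Lien, 1.17% to 3.42% in AngII and 1.10% to 8.15% in NS. For H2A, where the replacement genes include H2afz at 42.8 to 95.7 FPKM, the clustered share was 1.16% to 6.97% in Lien, 4.91% to 7.01% in AngII and 2.16% to 28.8% in NS, and NS 3 alone was above 7.01%. These highest shares, of NS 3, rest on Hist2h2aa1 and Hist2h3c1. In a calculation added after seeing the data, without Hist2h2aa1 the clustered share of H2A in NS 3 was 7.82%, and without Hist2h3c1 that of H3 was 3.43%.

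That library was alone in 2 genes of the Hist2 cluster. Hist2h2aa1, an H2A gene, had 38.8 FPKM in NS 3 and was listed at 0 in the other 14 libraries, and Hist2h3c1, an H3 gene, had 6.77 FPKM in NS 3 and was listed at 0 elsewhere. Gm20634, which overlaps Hist2h2aa1 and all of Hist2h3c1 on the same strand, had 10.6 FPKM in NS 3 and was listed at 0 elsewhere. None of the 50-base windows of Hist2h2aa1 or of Hist2h3c1 is its own. All windows of Hist2h2aa1 are shared with Gm20633, which overlaps it on the other strand, and all those of Hist2h3c1 with Gm20634. Their coding sequences are also identical to those of Hist2h2aa2 and Hist2h3c2. Reads of the 2 genes cannot be told apart from those of overlapping genes and copies, so neither value is taken as a level of that gene.

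The summed level of the members was 167, 133, 116, 130 and 130 FPKM in the Lien libraries, 197, 172, 154, 171 and 133 FPKM in the AngII libraries, and 168, 196, 340, 150 and 205 FPKM in the NS libraries. It averaged 135 ± 18.9 FPKM in Lien, 165 ± 23.6 FPKM in AngII and 212 ± 75.0 FPKM in NS (SD, n = 5 each). The groups overlapped, and without NS 3 the NS mean was 180 FPKM. Without Hist2h2aa1 and Hist2h3c1 the sum in NS 3 was 294 FPKM, still the highest. Hist1h1c and Hist1h2bc together held 62.7% to 74.4% of the sum in every library, so the sum mostly follows these 2 genes. In bulk tissue, fewer cells of a type and less RNA per cell cannot be told apart.

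**Figure D3:**
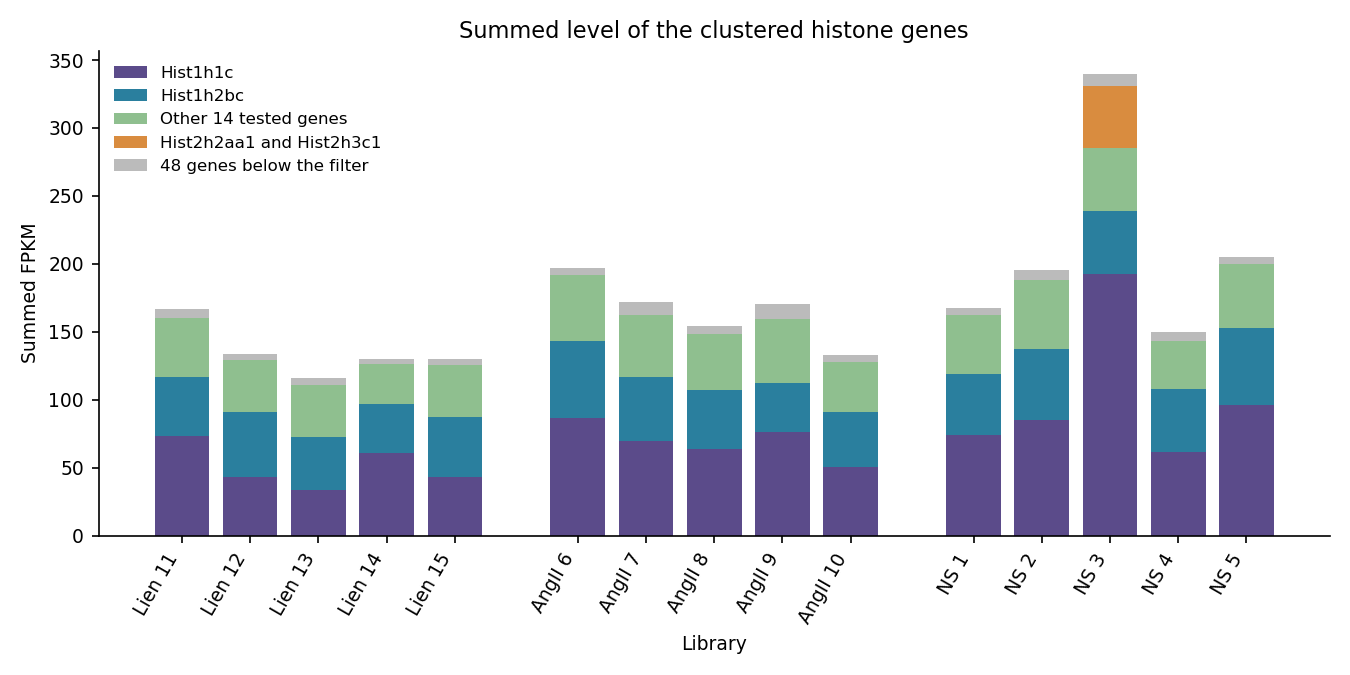
Summed FPKM of the clustered histone genes (vertical axis) in each library, Lien at the left, AngII in the middle and NS at the right; the colours split each bar into Hist1h1c, Hist1h2bc, the other 14 tested genes, the Hist2h2aa1 and Hist2h3c1 values, and the other 48 genes. The bars run from 116 FPKM in Lien 13 to 340 FPKM in NS 3, and the orange piece is present in NS 3 only.

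The tests across all 15586 genes asked which genes differed between hypertensive and normal mice and which differed with Lien. In AngII against NS, limma called 0 of the 16 clustered histone genes at an adjusted p under 0.05, beside 12 of all tested genes (0.0770%), and 0 of the 16 had an unadjusted p under 0.05, beside 7.04% of all genes. In Lien against AngII, limma called 0 of the 16, beside 2 of all tested genes (0.0128%), and 0 had an unadjusted p under 0.05, beside 6.40%. In Lien against NS, limma called 0 of the 16, beside 36 of all tested genes (0.231%), and 2 had an unadjusted p under 0.05, beside 7.06%. Those 2 were Hist1h1c and Hist1h2bn, both lower in Lien, and 3.70% of all genes were lower at that p. Hist1h2bn, an H2B gene, had 0.180 to 0.602 FPKM in Lien and 0.202 to 1.29 FPKM in NS, and differed by -0.40 (SE 0.18, limma adjusted p = 0.66). It is annotated by its coding sequence alone, and 13.6% of its windows are its own. No alternative setting and none of the 15 fits without 1 library called any member.

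Groups of 5 against 5 did not separate for any tested member in any comparison. Of all tested genes, 1.51% were higher without overlap in AngII against NS and 0.520% were lower. The shares were 0.180% and 0.802% in Lien against AngII, and 0.892% and 0.911% in Lien against NS. The absence of calls does not show that the levels were equal. For Hist1h1c the 95% interval in Lien against NS reached a log2 difference of -1.53.

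The median log2 difference over the 16 genes was -0.09 in AngII against NS, where the median over all tested genes was 0.12. It was -0.13 in Lien against AngII, beside -0.13 for all genes, and -0.19 in Lien against NS, beside -0.01 for all genes. With each library divided by its own median, the median of the 16 genes was -0.14 in AngII against NS, -0.03 in Lien against AngII and -0.15 in Lien against NS. By sign alone, 9 of 16 were lower in AngII against NS, 13 of 16 in Lien against AngII and 14 of 16 in Lien against NS, where 29.9%, 70.2% and 52.2% of all tested genes were lower. With that division 12, 8 and 13 of the 16 were lower, beside 50%, 43.5% and 43.9% of all tested genes. The 3 comparisons share libraries, so these counts are not independent of each other. Nor are the 16 genes separate observations. For 7 of them fewer than 50% of the 50-base windows are their own, so reads could be split between near copies.

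**Figure D4:**
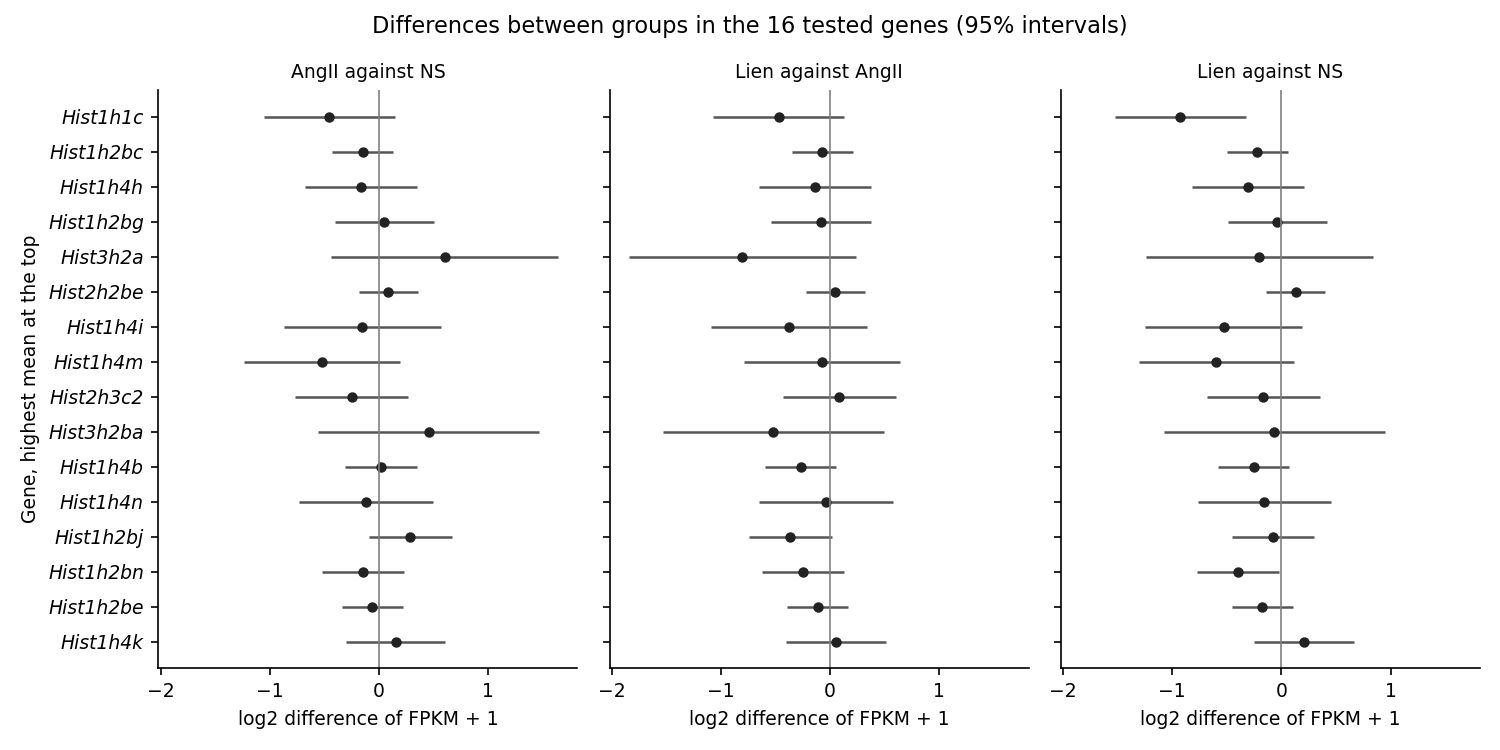
log2 difference of FPKM + 1 (horizontal axis) with its 95% interval (line) for the 16 tested clustered histone genes, in AngII against NS (left), Lien against AngII (middle) and Lien against NS (right); negative values are lower in the group named first. Only the lines of Hist1h1c and Hist1h2bn in Lien against NS lie clear of 0, before adjustment for the number of genes.

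Hist3h2a, the only tested H2A gene, had 8.68, 3.86, 0.604, 4.52 and 3.73 FPKM in the Lien libraries, 7.53, 7.84, 6.06, 9.76 and 4.57 FPKM in the AngII libraries, and 4.59, 7.27, 9.52, 0.631 and 3.99 FPKM in the NS libraries. High and low libraries occurred in every group. Its difference was -0.80 in Lien against AngII (SE 0.49, limma adjusted p = 0.74), 0.60 in AngII against NS (SE 0.49, limma adjusted p = 0.78) and -0.20 in Lien against NS (SE 0.49, limma adjusted p = 0.97). Hist3h2ba, the H2B gene of the same cluster, had 1.61, 0.379, 0.440, 0.490 and 0.736 FPKM in the Lien libraries, 3.5, 0.824, 1.10, 3.73 and 0 FPKM in the AngII libraries, and 0.102, 3.80, 1.60, 0.10 and 0.102 FPKM in the NS libraries.

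The libraries high in Hist3h2a were those high in nerve and Schwann cell genes. The 12-gene nerve list had a mean log2(FPKM + 1) of 3.56 to 4.90 in 6 libraries (Lien 11, AngII 6, AngII 7, AngII 9, NS 2 and NS 3) and of 1.31 to 2.70 in the other 9. None of the 12 was listed at 0 in every library. Hist3h2a had 7.27 to 9.76 FPKM in those 6 libraries and 0.604 to 6.06 FPKM in the other 9, with no overlap. Hist3h2ba had 0.824 to 3.80 FPKM in the 6 and 0 to 1.10 FPKM in the other 9. Hist1h2bj, an H2B gene, also did not overlap, with 0.807 to 1.57 FPKM in the 6 and 0.0998 to 0.753 FPKM in the other 9. Under the reading of the steps given with the processing, Hist1h2bj rests on 0.75 to 12.3 fragments per library, and 40.6% of its windows are its own. Hist3h2a and Hist1h2bj were 2 of the 16 tested members, and 8.14% of all tested genes were also higher in the 6 libraries without overlap. A separation of this kind is therefore not particular to the members. Other lists divided the libraries in nearly the same way. In Lien 11, AngII 6, AngII 7, AngII 9 and NS 2 the T cell list had 1.81 to 4.10, and no other library was above 1.68. The S phase list had 1.91 to 2.50 there, and no other library was above 1.83. The 6 libraries were chosen by measured values and are not a group of the study, and the part of nerve RNA in these levels was not tested. Hist3h2a shares 31.5% of its windows with Trim17, a gene it lies within on the same strand, and the summed value of Trim17 was at most 0.235 FPKM.

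**Figure D5:**
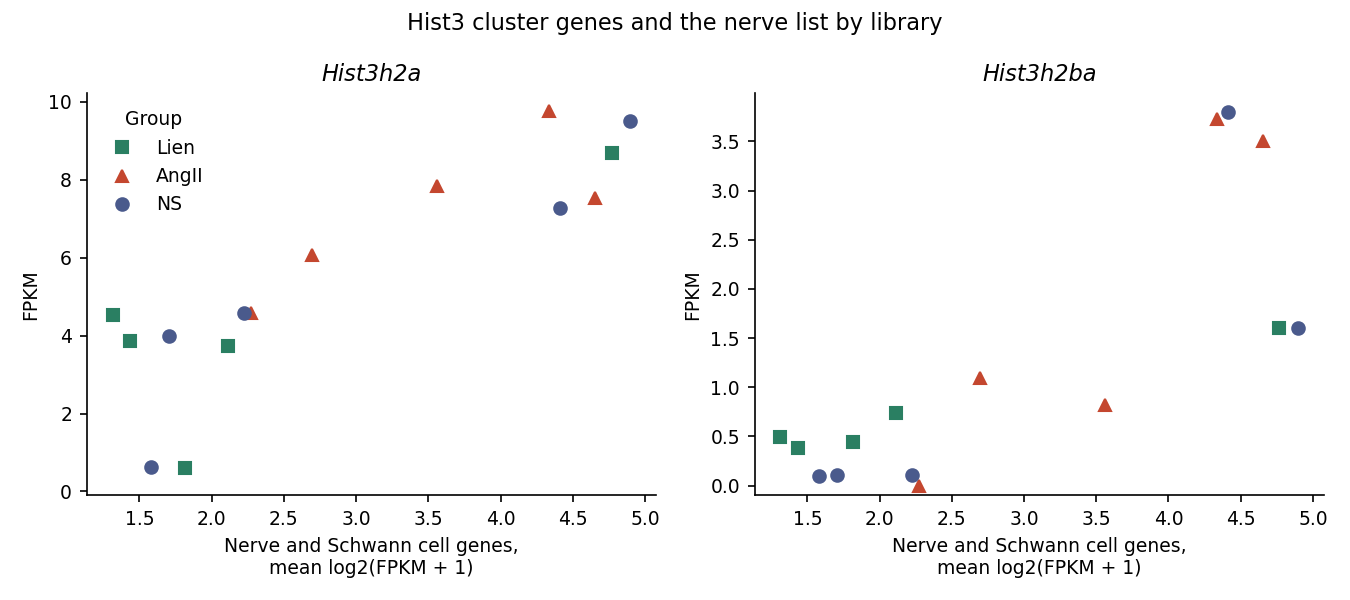
FPKM of Hist3h2a (left) and Hist3h2ba (right) against the mean log2(FPKM + 1) of 12 nerve and Schwann cell genes in the same library, with Lien as squares, AngII as triangles and NS as circles. The 6 libraries with a nerve value of 3.56 or more hold the 6 highest Hist3h2a values, 7.27 to 9.76 FPKM, and come from all 3 groups.

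The 48 members that were below the filter (Hist2h2aa1 and Hist2h3c1 left out) had a summed level of 6.76, 4.5, 4.87, 3.56 and 4.21 FPKM in the Lien libraries, 5.12, 9.53, 5.81, 11.1 and 5.06 FPKM in the AngII libraries, and 5.42, 7.44, 8.92, 6.69 and 5.67 FPKM in the NS libraries. AngII 7 and AngII 9 were the highest, with 36 and 38 of the 48 genes above 0, where the other libraries had 24 to 34. The G2 and mitosis list had its highest means in the same 2 libraries, 1.47 and 1.74 on the log2(FPKM + 1) scale, where the other libraries had 0.402 to 1.26, and the proliferation marker Mki67 had 2.53 and 3.28 FPKM there, where the others had 0.136 to 1.45 FPKM. The T cell and B cell lists were also highest in AngII 7 and AngII 9, at 3.88 and 4.10 for T cells and at 4.12 and 4.70 for B cells, where the others had 0.538 to 3.11 and 0.506 to 3.10. None of the 14 T cell and 12 B cell genes was listed at 0 in every library. The low members' sum also holds Hist2h3b, none of whose 50-base windows is its own. Hist2h3b had 1.16 FPKM in AngII 7, 1.40 FPKM in AngII 9 and 0.388 FPKM in Lien 12, and was listed at 0 in the other 12 libraries. Without it AngII 9 would still be the highest, but AngII 7 would lie below NS 3. In NS 3 the G2 and mitosis, T cell and B cell lists were at 0.659, 1.27 and 1.29. The part of lymphocytes in the low members' sum was not tested.

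The machinery around these genes was looked at in lists. Of 26 tested genes of histone pre-mRNA processing and decay, limma called 0 in each comparison, and those with an unadjusted p under 0.05 numbered 6 in AngII against NS, 3 in Lien against AngII and 1 in Lien against NS. For all lists that follow, the shares of all tested genes at that p are the 7.04%, 6.40% and 7.06% given above for these 3 comparisons. The list's median log2 difference was 0.27 in AngII against NS, beside 0.12 for all genes, -0.13 in Lien against AngII (0.07 with each library divided by its own median) and 0.10 in Lien against NS. The most abundant were Snrpb, a core spliceosomal protein also found in the U7 particle, at 62.8 ± 9.29 FPKM in Lien, 61.8 ± 16.3 FPKM in AngII and 58.8 ± 7.84 FPKM in NS, and Sympk, a scaffold of the cleavage complex, at 24.3 ± 2.62 FPKM in Lien, 24.3 ± 2.65 FPKM in AngII and 23.3 ± 2.08 FPKM in NS (SD, n = 5 each). Slbp itself ranged over 6.05 to 11.9 FPKM in Lien, 6.46 to 12.3 FPKM in AngII and 6.13 to 10.9 FPKM in NS.

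Of 18 genes of histone gene transcription, limma called 0 in each comparison, with 2, 2 and 0 at an unadjusted p under 0.05 in AngII against NS, Lien against AngII and Lien against NS. Ldha, a glycolytic enzyme also described in a coactivator of H2B genes, had 390 ± 119 FPKM in Lien, 326 ± 41.0 FPKM in AngII and 362 ± 75.3 FPKM in NS, and Yy1, a zinc finger factor, had 15.4 ± 2.55, 19.4 ± 1.99 and 16.7 ± 1.66 FPKM in Lien, AngII and NS (SD, n = 5 each). Of 20 genes of histone chaperones and assembly, limma called 0 in each comparison, with 0, 4 and 1 at an unadjusted p under 0.05 in the same order of comparisons. Rbbp7, a histone-binding subunit of several chromatin complexes, averaged 47.1 FPKM in Lien, 54.5 FPKM in AngII and 49.2 FPKM in NS, and Nap1l1, a carrier of H2A and H2B, averaged 31.0, 42.4 and 37.5 FPKM in Lien, AngII and NS. Of 12 tested replication-independent histone genes, limma called 0 in each comparison, with 1, 0 and 1 at an unadjusted p under 0.05.

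Genes of S phase and mitosis were not called either. Of 26 tested genes of S phase and DNA replication, limma called 0 in each comparison, with 3, 3 and 1 at an unadjusted p under 0.05 in the same order. Pcna, the sliding clamp of the replication fork, averaged 28.5 ± 3.42 FPKM in Lien, 35.5 ± 5.83 FPKM in AngII and 31.4 ± 3.11 FPKM in NS (SD, n = 5 each), and Mcm7, a subunit of the replicative helicase, averaged 8.71, 10.6 and 9.35 FPKM in Lien, AngII and NS. Of 16 tested genes of G2 and mitosis, limma called 0 in each comparison, with 10, 0 and 0 at an unadjusted p under 0.05. In AngII against NS all 16 differences were positive (15 of 16 with each library divided by its own median), beside 70.1% of all tested genes, with a median of 0.63, beside 0.12 for all genes. The T cell and B cell lists had 14 of 14 and 11 of 11 positive differences there, with medians of 1.11 and 0.63. AngII 7 and AngII 9 had the highest means of these lists, so leaving them out lowers the AngII means by construction. The fit without them shows how far the counts depend on these libraries and cannot test a difference between the groups. Without NS 3, AngII 7 and AngII 9, an alternative applied to these lists after seeing the data, 0 of the 16 genes of G2 and mitosis had an unadjusted p under 0.05 in AngII against NS, 13 of 16 were positive and their median was 0.20, beside 0.07 for all genes, while 7 of 14 T cell genes and 1 of 11 B cell genes were positive. Top2a, a topoisomerase of dividing cells, differed by 0.83 in AngII against NS (SE 0.38, limma adjusted p = 0.70), with 3.32 ± 2.59 FPKM in AngII and 1.15 ± 0.50 FPKM in NS (SD, n = 5 each). Ube2c, a ubiquitin-conjugating enzyme of mitosis, averaged 2.28 FPKM in Lien, 2.59 FPKM in AngII and 1.95 FPKM in NS. Among the same 16 clustered histone genes 7 of 16 differences were positive in AngII against NS.

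The libraries differed in their mix of tissue. The smooth muscle list, which defines the labelled vascular tissue, had a mean log2(FPKM + 1) of 4.68 to 7.10, and the brown adipocyte list had 5.63 to 7.68. The cardiomyocyte list ranged from 0.470 to 6.18 and the skeletal muscle list from 0.698 to 9.14, with nearly their whole range inside the NS group, and the labels' extraction note speaks of hearts where the sample labels give vascular tissue. Of the 13 cell type lists, 1 gene was called in any comparison, the endothelial junction gene Cldn5, in Lien against NS. Cldn5 had 82.4 ± 23.7 FPKM in Lien, 107.49 ± 21.022 FPKM in AngII and 224 ± 35.0 FPKM in NS (SD, n = 5 each). Its log2 difference was -1.47 in Lien against NS (limma adjusted p = 0.00984). It was -1.06 in AngII against NS (limma adjusted p = 0.083) and -0.41 in Lien against AngII (limma adjusted p = 0.74), neither of them called.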

How the data were processed

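Total RNA was sequenced in 15 libraries, with ribosomal RNA removed beforehand per the labels. The authors deposited 1 table of 131437 transcripts, whose unit no label names. The deposited values were read as FPKM, and they sum to 477095 to 569546 per library. How reads were aligned and quantified, and on which build, is not given in the sources used here. The submitters' processing notes name limma, with no role. Low values fell on even steps in at least 99.63% of cases, within 0.05 of a step. Read with 4 steps as 1 fragment, this gives 1.58e+07 to 1.93e+07 fragments per library, and with 1 step as 1 fragment 4 times as many. No count table was used, so no counting intervals are given.

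Transcripts were matched to GENCODE M21 (99965 found, 1243 not found) and summed to 32930 genes. Transcripts with assembly names, 11.0% to 17.0% of the sum, stayed out. Tested were 15586 genes that reached 0.5 FPKM in 5 or more libraries, on log2(FPKM + 1), which understates the change of low genes, with limma 3.58.1 in R 4.3.3. The fit held 3 group means, 12 residual degrees of freedom, with trend and robust variances. The two-sided p was adjusted after Benjamini and Hochberg within each comparison, and a gene was called below 0.05. The design also named a count test, which this unit does not allow. In data simulated without differences in tissue mix, the fit recovered most of the larger known changes. Only genes with a mean log2(FPKM + 1) above 1 were changed there, so tested members below that level were not covered.

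The members and all 19 gene lists were chosen with earlier results of these data known. Named were the 12 members with the highest mean, any called, the 3 with the smallest p per comparison, the highest of each class per cluster, and of other lists any called or else the 2 with the highest mean, and other members are given as ranges or as partners of these. Promoters are from RefSeq (61 of 67 members matched). Alternatives were another pseudocount, 2 other filters, 2 scalings, plain empirical Bayes, library weights, the highest transcript, and libraries left out. Software was Python 3.11.15 with matplotlib 3.10.9 for plots, numpy 2.4.6 and pandas 2.3.3.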

Additional observations from a re-analysis of the deposited data

Results flagged for a closer look

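Of 55 sets of 5 libraries checked (the 18 named members and the summed level in each group, leaving out sets with no spread), 7 had a library far from the other 4, with a gap above Dixon's 95% critical value of 0.71 of the range. Chance gives about 1 in 20 such sets where values are independent and normally distributed. The check used FPKM without a log, some of it near 0, and the sets share libraries. How many such sets chance would give here was not measured. Hist1h1c had 192.19 FPKM in NS 3, where the other NS libraries had 61.3 to 96.3 FPKM. Hist2h2aa1 had 38.766 FPKM in NS 3, where the other NS libraries were listed at 0. Hist1h2bg had 7.1749 FPKM in Lien 14, below the 9.61 to 10.4 FPKM of the other Lien libraries. Lien 11 stood above the other Lien libraries in 3 genes, with 3.3039 FPKM of Hist1h4m (others 0.337 to 1.18 FPKM), 2.3223 FPKM of Hist2h3c2 (others 0.979 to 1.27 FPKM) and 0.07174 FPKM of Hist4h4 (others listed at 0). Hist1h2ae had 0.58719 FPKM in AngII 9, where the other AngII libraries had 0.0368 to 0.174 FPKM.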

How the results depend on the processing

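Members called stayed at 0 in the 3 comparisons under all alternatives and in the 15 fits without 1 library. Genes called moved by more than 1.5 times as follows. In AngII against NS they numbered 12, and 2 without a filter, 23 with quantile normalization, 6 with scaling to one median, 35 with library weights, 5 with the highest transcript, 3 without NS 3, AngII 7 and AngII 9, and 1 to 17 without 1 library. In Lien against AngII they numbered 2, and 1 with a filter of 2 FPKM, 1 with quantile normalization, 6 with library weights, 1 without the 3 libraries, and 1 to 3 without 1 library. In Lien against NS they numbered 36, and 23 without a filter, 94 with library weights, 17 without the 3 libraries, and 11 to 36 without 1 library. The cause was not tested.

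Of 918 values of the 13 named genes tested, 870 kept their direction and side of the threshold and 48 reversed, in 13 results, none of them called. In AngII against NS, Hist1h2bg (0.05) was -0.0809 with quantile normalization, -0.1001 with scaling to one median, -0.0009 with library weights, -0.1213 without the 3 libraries and -0.1595 to 0.1515 without 1 library. Hist1h4b (0.02) was -0.0983, -0.0698, -0.0052 and -0.1131 under the same 4 settings and -0.0476 to 0.0744 without 1 library. Hist2h2be (0.08) was -0.0618 with quantile normalization and -0.0473 with scaling, and Hist1h4i (-0.15) was -0.3498 to 0.1051 without 1 library. In Lien against AngII, Hist1h2bg (-0.09) was 0.0682 with quantile normalization, 0.1281 with scaling and -0.1583 to 0.0043 without 1 library. Hist1h4m (-0.07) was 0.0992, 0.0046 and -0.3443 to 0.0775 under those. Hist1h2bc (-0.07) was 0.1585 with scaling and -0.146 to 0.0136 without 1 library. Hist1h4h (-0.14) was 0.0842 with scaling, 0.0034 with library weights and -0.2766 to 0.0866 without 1 library. Hist2h3c2 (0.08) was -0.0602 with library weights and -0.0528 to 0.2411 without 1 library, and Hist2h2be (0.05) was -0.0523 without the 3 libraries and -0.0448 to 0.1151 without 1 library. In Lien against NS, Hist3h2ba (-0.06) was 0.4003 with a pseudocount of 0.1, 0.0044 with quantile normalization, 0.0767 with library weights, 0.0782 without the 3 libraries and -0.2324 to 0.2987 without 1 library. Hist1h2bg (-0.04) was 0.0279 with scaling and -0.2451 to 0.0658 without 1 library, and Hist3h2a (-0.20) was 0.0496 without the 3 libraries and -0.6225 to 0.1752 without 1 library.

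The summed level without 1 library averaged 127 to 140 FPKM in Lien, 157 to 173 FPKM in AngII and 180 to 227 FPKM in NS, and without Hist2h2aa1 and Hist2h3c1, an alternative chosen after seeing the data, 203 FPKM in NS. Of the 66 members, 33 never reached 0.5 FPKM, and for 34 fewer than 50% of the 50-base windows are found in no other gene. No paired analysis was possible because the replicate numbers of the 3 groups do not overlap.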

Other observations

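Among the 30229 transcripts with assembly names, those with at least 10 FPKM in each of the 14 libraries other than NS 3, and at most 0.1 of the lowest of these in NS 3, were looked for, since Hist2h2aa1 and Hist2h3c1 had values in NS 3 alone. The search found 1, with 46.9 to 160 FPKM in the 14 libraries and 0.396 FPKM in NS 3. It carries no position, so it cannot be placed at the Hist2 cluster.

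Identity between members was high. The coding sequence of 51 of the 67 genes was at least 95% identical to that of its nearest member, and 10 genes had a copy with an identical coding sequence. Hist1h1c stood apart, with 84.5% identity to its nearest member, Hist1h1d, and 91.5% of its 50-base windows found in no other gene.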
